A study of Mus musculus with 4 samples.

Results

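Compact genes, defined here as expressed genes whose introns add up to no more than 2000 bases, were followed through the intron and splice junction reads of Prmt5-deficient and control thymic invariant natural killer T (iNKT) cells. A gene was taken as compact when its annotated exon length was above 0, when its region minus that exon length left 1 to 2000 bases of intron, and when each of the 4 libraries held at least 20 unique exon reads for it. The rule chose 633 of the 46517 genes of the deposited table. The genes were thus selected on annotated lengths and on unique exon reads. Unique exon reads also enter both shares described below, and exon levels of some genes are given beside them. At any number of reads, 5888 genes met the length rule.

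There were 2 libraries labelled Prmt5 KO (genotype Prmt5 flox/D with Cd4-Cre). Another 2 were labelled Control, for which the genotype label lists Prmt5 flox/D and Prmt5 flox/+ Cd4-Cre without saying which library carried which, and no age is given. All came from C57BL/6J thymus, sorted as stage 1 iNKT cells by the absence of CD24, NK1.1 and T-bet, and Cd4-Cre acts from the stage at which thymocytes express CD4, so other T cells of these mice carry the deletion too. Whether a mouse or a pool of mice stood behind each library is not in the labels, so the spread behind every p-value is that of these libraries and may be technical.

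Splicing removes introns from the primary transcript and joins the exons, and a read that crosses such a joint is a junction read. PRMT5 is an arginine methyltransferase that places symmetric dimethylarginine on Sm proteins, the ring of proteins around the spliceosomal small nuclear RNAs, and loss of PRMT5 is known to leave some introns in polyadenylated RNA. Retained introns are often short. In iNKT cells, as in other T cells, many abundant housekeeping messages are of this compact kind, ribosomal proteins among them.

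The compact genes had a median intron length of 999 bases (1 to 1998) beside a median exon length of 1964 bases. By symbol and coordinates, 440 of the 633 were matched to GENCODE M21, and these had a median of 2 introns (at most 13) outside every annotated exon. Of the matched genes, 411 were protein coding, 12 and 5 were T cell receptor variable and constant segments, and 12 were noncoding. The table's exon length equalled the union of all annotated transcripts for 393 of the 440, so a read from an intron that any annotated transcript keeps was counted as an exon read. Of the matched genes, 246 had at least 1 transcript annotated as a retained intron, 18 held a small nucleolar RNA and 7 a microRNA in an intron. Regions of 252 compact genes overlapped another region, and reads there cannot be given to one gene with certainty because nothing says whether counting used the strand.

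The introns that are spliced out of coding transcripts but kept in an annotated retained-intron transcript can be read from GENCODE M21 (build GRCm38, mm10). In compact genes there were 576 of them in 202 genes, with a median length of 186 bases and a median GC content of 52.79%. In the other expressed genes there were 3065 in 1486 genes, with a median of 295 bases and 50.33% GC. The introns began with GT and ended with AG, searched on the transcribed strand, in 98.78% of the compact and 98.34% of the other cases. Of such introns, 1 is printed for each of 6 genes named below. Each is written 5′ to 3′ on the transcribed strand, with the GT and AG at the splice sites in capitals. They lie at chr9:107978782-107978855 (plus strand) for Uba7, chr8:71367694-71367769 (plus) for Use1, chr2:130276624-130276706 (plus) for Nop56, chr10:80036843-80036914 (minus) for Polr2e, chr3:96630066-96630305 (plus) for Rbm8a and chrX:101267121-101267310 (minus) for Il2rg.
Uba7: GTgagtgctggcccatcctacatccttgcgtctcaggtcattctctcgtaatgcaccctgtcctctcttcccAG
Use1: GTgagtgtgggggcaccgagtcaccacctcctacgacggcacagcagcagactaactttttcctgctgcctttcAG
Nop56: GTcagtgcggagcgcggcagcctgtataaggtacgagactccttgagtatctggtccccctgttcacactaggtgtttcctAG
Polr2e: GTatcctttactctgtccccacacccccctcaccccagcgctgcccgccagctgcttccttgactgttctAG
Rbm8a: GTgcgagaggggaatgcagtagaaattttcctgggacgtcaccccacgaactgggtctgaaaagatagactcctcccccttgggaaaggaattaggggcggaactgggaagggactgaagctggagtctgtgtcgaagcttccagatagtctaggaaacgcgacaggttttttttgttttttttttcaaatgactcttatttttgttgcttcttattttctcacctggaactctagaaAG
Il2rg: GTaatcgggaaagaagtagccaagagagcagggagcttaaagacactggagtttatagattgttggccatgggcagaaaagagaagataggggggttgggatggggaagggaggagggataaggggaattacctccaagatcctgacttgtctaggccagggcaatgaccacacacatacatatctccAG
The Uba7, Use1, Nop56 and Polr2e introns are 74, 76, 83 and 72 bases long. A unique read inside one of these introns was counted as an exon read that crosses no junction, so its place is in the exon-exon share and not in the intron share. Il2rg had no such unique read, as described with its values. The intron shares of Uba7, Nop56, Polr2e and Rbm8a given below therefore come from other introns than those printed. For Nop56, Polr2e and Rbm8a the log2 difference of junction to other exon reads was small beside its error: -0.56 ± 0.45, -0.04 ± 0.20 and -0.20 ± 0.23 (SE).

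Across the series, unique exon reads numbered 11674023 and 4536094 in the Prmt5 KO libraries and 4817807 and 3886087 in the Control libraries. Counts were scaled to 1000000 unique exon reads of their library, exon and intron counts alike, and are given as CPM. Exon reads of Prmt5 came to 110 and 133 CPM in the Prmt5 KO libraries and to 115 and 109 CPM in the Control libraries, so the whole-gene count did not separate the groups; the deleted exons were not known here, and a sum over all exons does not check the deletion. All 7 iNKT and T cell markers were detected in every library, with summed exon levels of 6006 and 6735 CPM in Prmt5 KO and 5973 and 6674 in Control. The sums cover markers that went opposite ways. Cd3e was lower in Prmt5 KO (363 and 639.5 CPM, against 999 and 861 in Control). Zbtb16 (442 and 283, against 222 and 158.5), Cd28 (940 and 1006, against 561.5 and 621) and Slamf6 (572 and 485, against 277 and 331) were higher. Cd3g, Cd3d and Lck overlapped between groups. Of 6 markers of B cells, myeloid cells and double-positive thymocytes, Ms4a1, Lyz2, Ptcra and Rag1 were at 0 in every library and the sum of the 6 did not pass 0.257 CPM. The 3 genes behind the sort summed to 27.4 and 22.7 CPM in Prmt5 KO and 164 and 83.4 in Control. Of them, Tbx21, which encodes T-bet, stood at 17.0 and 5.95 CPM in Prmt5 KO and 125 and 70.8 in Control, Klrb1c (NK1.1) at 3.51 and 13.9 in Prmt5 KO and 38.2 and 12.6 in Control, and Cd24a at 6.94 and 2.87 in Prmt5 KO and 0 and 0 in Control; their part in the results below was not tested. Prmt5 KO 1 stood apart: its introns of 8637 genes without any exon read collected 0.0140 CPM per kilobase of intron, against 0.00379 in Prmt5 KO 2 and 0.00345 and 0.00383 in Control. The part of these reads in the intron values of Prmt5 KO 1 was not tested, and results are given with and without that library where they rest on it.

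The intron share of a library was the percentage of unique gene reads that lay in introns. Summed over the 633 compact genes it was 1.81% in Prmt5 KO 1 (95% Clopper-Pearson interval 1.78 to 1.83%, 23480 intron reads) and 0.639% in Prmt5 KO 2 (0.620 to 0.658%, 4394 reads). In Control 1 it was 0.583% (0.564 to 0.601%, 3890 reads) and in Control 2 0.590% (0.571 to 0.609%, 3763 reads). Both Prmt5 KO libraries lay above both Control libraries, Prmt5 KO 1 at 3.08 times the Control mean and Prmt5 KO 2 at 1.09 times. The means were 1.22 ± 0.825% in Prmt5 KO and 0.586 ± 0.00489% in Control (SD, n = 2 each), a difference of 0.636 percentage points that came to 0.0527 points without Prmt5 KO 1. An exact test of 2 libraries against 2 cannot give a two-sided p below 0.333, and the intervals cover counting error only.

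Gene by gene, the median intron share of the compact genes was 1.80% in Prmt5 KO 1 and 0.133% in Prmt5 KO 2, against 0.261% in Control 1 and 0.179% in Control 2. Prmt5 KO 2 thus had the lowest median of the 4 libraries, and the medians of the groups overlapped. Among all 8148 expressed genes with introns, the median was 6.00% in Prmt5 KO 1 and 3.11% in Prmt5 KO 2, against 1.5% and 2.38% in Control, without overlap. No unique intron read at all was found for 91 compact genes in Prmt5 KO 1 and 277 in Prmt5 KO 2, against 244 and 269 in Control. That was 14.4% and 43.8% of them in Prmt5 KO and 38.55% and 42.5% in Control. Among all expressed genes with introns it was 4.31% and 19.5% in Prmt5 KO and 18.5% and 21.5% in Control. Prmt5 KO 1 was also the deepest library, and such counts depend on depth. Of the 561 compact genes with any intron read, Prmt5 KO 1 had the highest share in 363 (64.7%), Prmt5 KO 2 in 86, Control 1 in 43 and Control 2 in 69. An intron share over 20% was seen for 28 and 10 genes in the Prmt5 KO libraries and for 6 and 8 in the Control libraries.

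**Figure D1:**
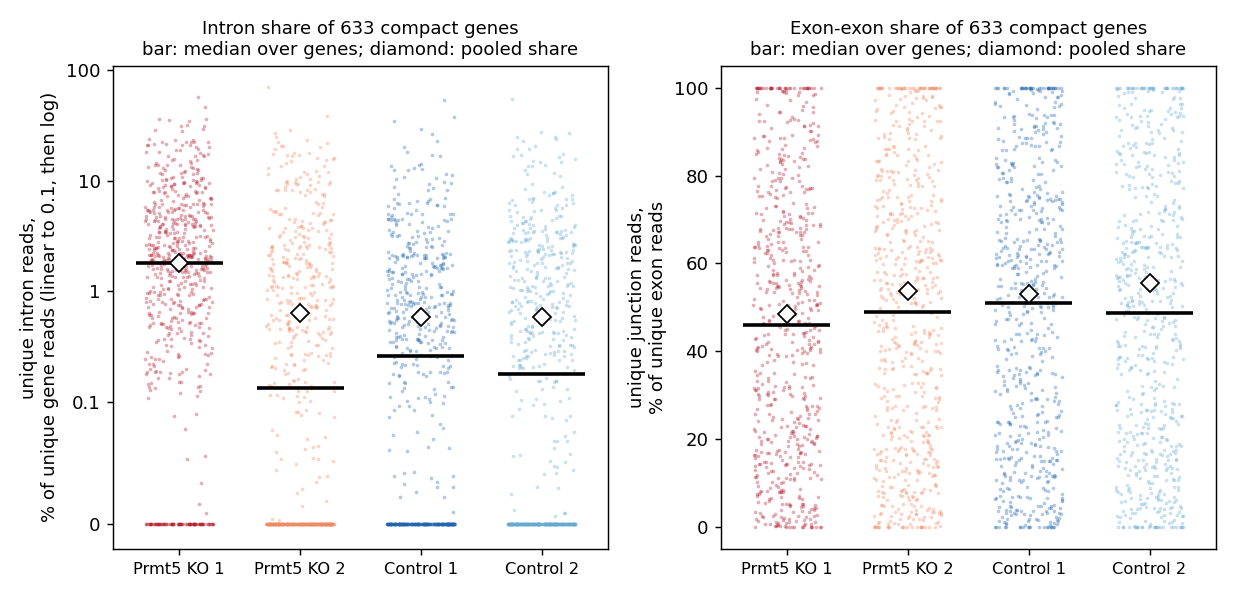
Intron share (left, percent of unique gene reads, linear to 0.1 and logarithmic above) and exon-exon share (right, percent of unique exon reads) of the 633 compact genes in Prmt5 KO 1, Prmt5 KO 2, Control 1 and Control 2. Each point is 1 gene, bars are medians over genes and diamonds are shares of the summed reads; the median intron share was 1.80% in Prmt5 KO 1 and 0.133%, 0.261% and 0.179% in Prmt5 KO 2, Control 1 and Control 2.

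The intron reads were uneven in their density. Compact genes had 3.15 and 1.52 intron CPM per kilobase of intron in Prmt5 KO, against 1.26 and 1.52 in Control. Set against their own exon density, that was 4.19% and 1.46% in Prmt5 KO and 1.33% and 1.35% in Control. Expressed genes with over 2000 and up to 10000 intron bases had 0.944 and 0.545 intron CPM per kilobase in Prmt5 KO and 0.387 and 0.417 in Control, so an intron base of a compact gene carried more reads in every library. Set against exon density, these longer genes had 2.43% and 1.23% in Prmt5 KO and 0.89% and 0.90% in Control. By that measure the gap to compact genes was smaller in every library.

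The pooled intron share was lowest in compact genes and went up with the length of intron per gene. Genes with over 2000 and up to 10000 intron bases (1952 genes) stood at 4.27% and 2.21% in Prmt5 KO and 1.61% and 1.63% in Control. Genes with over 10000 and up to 50000 bases (3744 genes) stood at 5.26% and 4.25% in Prmt5 KO and 1.82% and 3.22% in Control, and those with over 50000 (1819 genes) at 11.5% and 12.4% in Prmt5 KO and 7.06% and 11.3% in Control. In each class both Prmt5 KO libraries lay above both Control libraries. The ratio of Prmt5 KO 1 to the Control mean was 3.08 in compact genes and 2.64, 2.09 and 1.25 in the 3 longer classes, while the ratio of Prmt5 KO 2 was 1.09 in compact genes and 1.37, 1.69 and 1.35 in the longer ones. The classes share the same libraries, and no test was made between them.

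**Figure D2:**
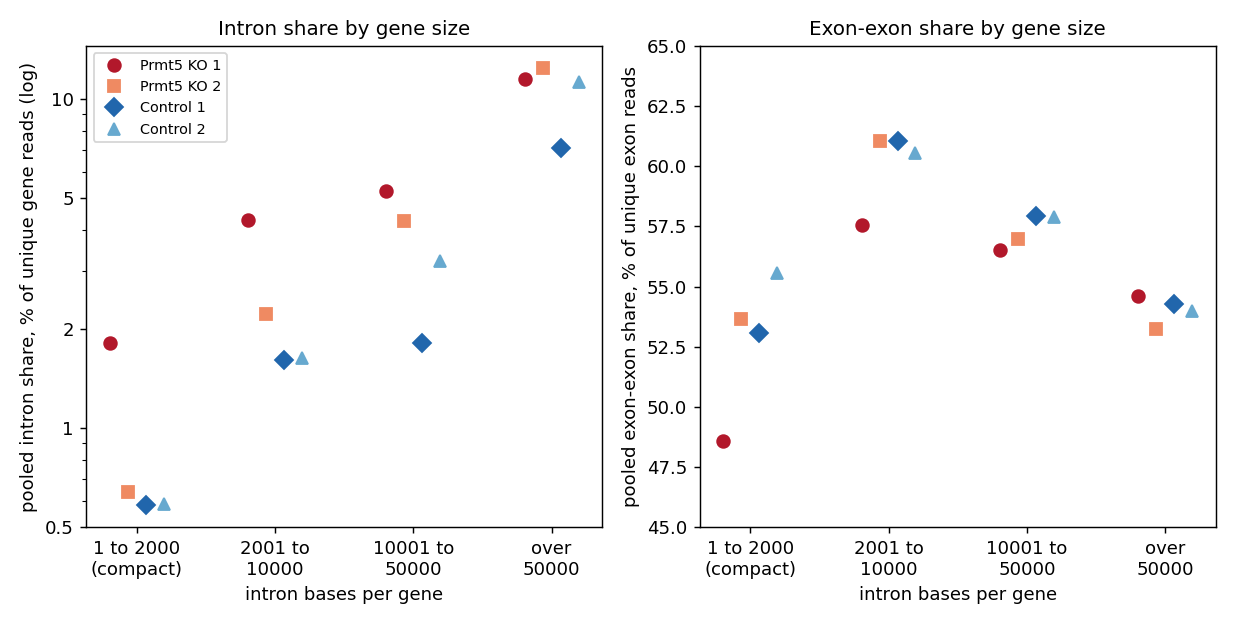
Pooled intron share (left, percent of unique gene reads, log axis) and pooled exon-exon share (right, percent of unique exon reads) of expressed genes by intron bases per gene, 1 point per library. Among compact genes Prmt5 KO 1 is at 1.81% intron share with the other 3 libraries between 0.583% and 0.639%, and at 48.6% exon-exon share with the others between 53.1% and 55.6%.

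Within the compact genes, the share in Prmt5 KO 1 was larger where there was more intron. It was 0.910% for the 54 genes with 1 to 200 intron bases and 2.88% for the 142 with over 1500, where Prmt5 KO 2 had 0.633% and 0.857%. Control 1 had 0.696% and 0.875%, and Control 2 had 0.531% and 0.714%, for the same 2 sets. The 246 genes with an annotated retained-intron transcript had shares of 1.33% and 0.356% in Prmt5 KO, against 0.344% and 0.353% in Control. The 194 matched genes without one had 1.49% and 0.673% in Prmt5 KO, against 0.567% and 0.663% in Control. In both sets Prmt5 KO 1 stood apart, and Prmt5 KO 2 lay just above the higher Control library.

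At the limits of the rule, compact genes just inside the length limit included Sept1 (1992 intron bases) at 4.49% and 0.448% in Prmt5 KO and 0.486% and 0.179% in Control. Tcrg-C1 (1998 bases), also inside, went the other way, at 0.133% and 0.138% in Prmt5 KO and 0.208% and 0.541% in Control. Just outside it, Irf3 (2014 bases) stood at 5.14% and 1.11% in Prmt5 KO and 1.32% and 0% in Control. Rpusd1 (2003 bases) had its highest value in Control 2, at 4.46% and 1.65% in Prmt5 KO and 1.67% and 7.69% in Control. The 26 genes whose lowest library had 20 to 24 unique exon reads had pooled shares of 5.44% and 5.81% in Prmt5 KO and 3.01% and 3.43% in Control. The 33 genes that missed the read limit with 15 to 19 reads had 9.05% and 2.26% in Prmt5 KO and 3.27% and 7.60% in Control.

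The intron share of each gene was tested with edgeR's quasi-likelihood test of intron against exon reads within each library, over the 7399 expressed genes with at least 10 unique intron reads in all. Of the compact genes, 428 were tested; 72 had no unique intron read and 133 had 1 to 9. At a Benjamini-Hochberg adjusted p under 0.05, 0 of the 7399 genes (0%) were called higher in Prmt5 KO and 0 (0%) lower, and the smallest adjusted p was 0.717. DESeq2 called 0 as well. At an unadjusted p under 0.05 there were 35 of the 428 compact genes (8.18%), all with a higher share in Prmt5 KO, beside 502 of all genes (6.78%). Without Prmt5 KO 1 there were 13 of 264 (4.92%), 8 higher and 5 lower, beside 6.14% of all genes, so the count and its one direction rested on that library. With intron columns scaled by their own totals there were 14 (3.27%), all higher, beside 3.38%. The median log2 difference over all genes tested was 1.09 (0.25 with that scaling), so a gene with that value moved no more than the libraries as a whole.

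Counted without a test, 160 of the 633 compact genes (25.3%) had a higher intron share in both Prmt5 KO libraries than in either Control library, beside 36.5% of all expressed genes with introns. In the other direction there were 15 (2.37%), beside 2.03% of all. Without Prmt5 KO 1, 182 compact genes (28.8%) were above both Control libraries and 118 (18.6%) below both, beside 44.2% and 18.6% of all genes. Without Prmt5 KO 2 the counts were 427 (67.5%) and 25 (3.95%), beside 66.6% and 3.69% of all genes, so they were close to the share of all genes.

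The compact genes with the smallest p and no overlap in intron share did not pass the threshold, and each had an adjusted p of 0.717. Uba7 (chr9:107975505-107984060, plus strand) encodes the ubiquitin-like modifier activating enzyme for ISG15, an interferon-induced modifier. Its unique intron reads numbered 166 and 35 in Prmt5 KO and 9 and 12 in Control, which gave intron shares of 9.29% and 15.3% in Prmt5 KO and 0.733% and 1.62% in Control. The 2 Prmt5 KO libraries were well above the 2 Control libraries, and the summed reads gave a ratio of shares of 9.36 (counting interval 5.96 to 15.4). The log2 difference of the intron to exon ratio was 3.60 ± 1.23 (SE; edgeR adjusted p = 0.717), and it was 4.01 without Prmt5 KO 1 and 2.76 with intron columns scaled by their own totals. The intron CPM of Uba7 was also higher in Prmt5 KO (14.2 and 7.72, against 1.87 and 3.09 in Control), while its exon CPM was lower (139 and 42.8, against 253 and 188 in Control).

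Nop56 encodes a core protein of box C/D small nucleolar ribonucleoproteins and is itself host to small nucleolar RNAs. It had 57 and 12 intron reads in Prmt5 KO and 3 and 1 in Control, with shares of 1.56% and 1.34% in Prmt5 KO and 0.172% and 0.0752% in Control. The groups did not overlap, and the log2 difference was 3.51 ± 1.26 (edgeR adjusted p = 0.717). Rbm8a encodes a core protein of the exon junction complex, which is deposited beside joined exons. Its shares were 2.46% and 1.99% in Prmt5 KO and 0% and 0.205% in Control, where 1 intron read stood against 45 in Prmt5 KO; the ratio of summed shares was 28.9 with a counting interval of 4.93 to 1167. Rps16, a protein of the small ribosomal subunit, had 9.56% and 8.73% in Prmt5 KO and 0% and 0.822% in Control, from 3 Control reads, with a ratio of 18.1 (5.90 to 90.3). The 2 Prmt5 KO values of Rbm8a and of Rps16 lay close together and far above both Control values.

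For 4 further genes the Control libraries held no intron read, and the ratios are lower bounds against a floor of 3 reads over the group. Trappc1, a subunit of the TRAPP vesicle tethering complex, had 14 and 16 intron reads in Prmt5 KO and 0 and 0 in Control, with shares of 4.55% and 6.23% in Prmt5 KO, at least 6.43-fold higher. Coasy, the last enzyme of coenzyme A synthesis, had 48 reads in Prmt5 KO 1, 1 in Prmt5 KO 2 and 0 in Control, at least 11.7-fold higher but carried by Prmt5 KO 1. Polr2e, a subunit that the nuclear RNA polymerases share, had 16 and 5 reads in Prmt5 KO and none in Control (0.822% and 0.434% in Prmt5 KO; at least 3.91-fold). In Actg1, which encodes cytoplasmic gamma-actin and has only 195 intron bases, 12 and 7 intron reads stood beside 15391 and 8013 exon reads in Prmt5 KO, against 0 intron reads beside 7632 and 6048 exon reads in Control (at least 3.70-fold). Reads of Actg1 and Rps16 can also fit near-identical copies elsewhere, which makes their unique counts less certain. Of the 8 genes, Uba7, Nop56, Rps16 and Actg1 lie in regions that overlap another.

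Among compact genes without overlap between groups, the 8 with the smallest p and a lower share in Prmt5 KO had edgeR adjusted p-values of 0.784 to 0.953. Trbv13-3, a T cell receptor beta variable segment, had 3.81% and 0% in Prmt5 KO and 6.02% and 9.43% in Control. Ppdpf had 0.935% and 0.543% in Prmt5 KO and 2.51% and 1.47% in Control, and Btg1, an antiproliferative factor of lymphocytes, 0.520% and 0.554% in Prmt5 KO and 0.758% and 1.33% in Control. The other 5 were Stk16, Tmem186, Tcrg-C1, Cox14 and Pfdn6. Their groups did not overlap, and their summed intron reads ranged from 4 to 37 in Prmt5 KO and from 7 to 35 in Control.

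**Figure D3:**
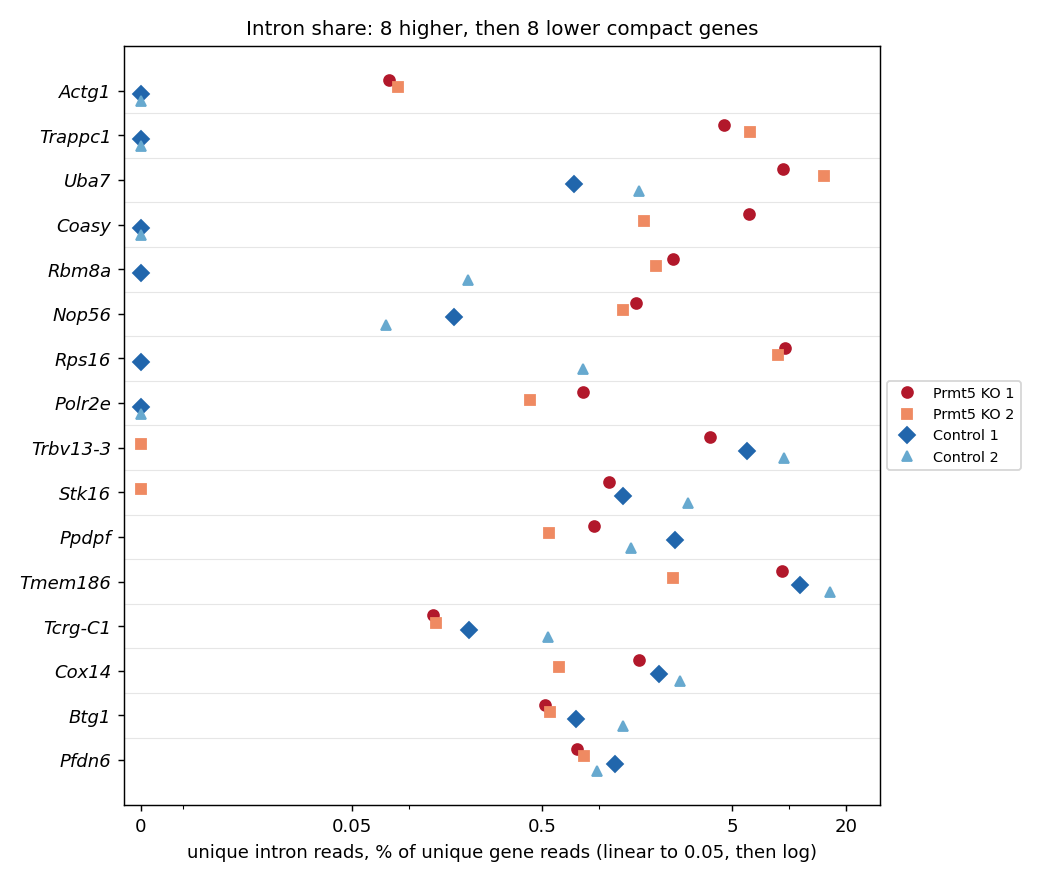
Intron share (percent of unique gene reads, linear to 0.05 and logarithmic above) of the 8 compact genes with the smallest p and a higher share in Prmt5 KO, from Actg1 down to Polr2e, and of the 8 with a lower share, from Trbv13-3 down to Pfdn6. Both sets were limited to genes whose groups did not overlap. Each point is 1 library; Uba7 shows 9.29% and 15.3% in Prmt5 KO and 0.733% and 1.62% in Control.

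A small number of genes held much of the intron signal: the 10 with the most unique intron reads carried 19.3% of the 35527 reads of all compact genes. Pfn1, which encodes the actin-binding protein profilin, led with 1092, of which 912 came from Prmt5 KO 1. Its share was 3.21% and 0.423% in Prmt5 KO and 0.362% and 0.102% in Control, and it was the 1 gene called without Prmt5 KO 2. Id2, which encodes an inhibitor of E proteins with a role in iNKT maturation, had 2.30% and 1.37% in Prmt5 KO and 0.291% and 1.12% in Control. In both genes the groups did not overlap and Prmt5 KO 1 was the highest library.

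T cell receptor segments made up 4 of those 10. Trbc1, a beta chain constant segment, had 5.39% and 1.82% in Prmt5 KO and 0.714% and 0.524% in Control. Its intron level, tested with edgeR on reads scaled by the exon libraries, gave a log2 difference of 2.45 ± 0.77 (adjusted p = 0.428). Trbc2 overlapped between the groups (4.94% and 1.22% in Prmt5 KO, 0.783% and 2.54% in Control), as did the gamma constant segment Tcrg-C2 (14.0% and 8.27% in Prmt5 KO, 12.6% and 5.41% in Control). The gamma variable segment Trgv2 had 23.4% and 27.2% in Prmt5 KO and 17.1% and 19.3% in Control. Pooled over the 17 receptor segments the share was 4.44% and 1.76% in Prmt5 KO and 2.59% and 2.41% in Control, with Prmt5 KO 2 the lowest.

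Intron shares differed widely between compact genes. Ptger1, a prostaglandin E receptor, had 56.8% and 70.0% in Prmt5 KO and 53.6% and 55.5% in Control with no junction read in any library, and its region overlaps another. Sdr39u1, Pgp and Cuta had mean shares over the 4 libraries of 26.7%, 25.8% and 20.2%. For Pgp, whose enzyme removes phosphate from glycolate, the libraries ranged widely, at 22.5% and 38.8% in Prmt5 KO and 38.1% and 4% in Control. Nfkbia, the inhibitor of NF-kappaB, had 5.38% and 12.99% in Prmt5 KO and 2.86% and 17.5% in Control. In both of these genes the groups overlapped and the libraries of a group lay far apart. At the other end, 42 of the 514 compact genes with at least 500 unique exon reads had no unique intron read, and the deepest of these were Rpl35a, Psmb10, Il2rg, Egr1 and Rpl13. In these, except Egr1, all unique exon reads were junction reads and the region overlaps another.

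Il2rg encodes the common cytokine receptor gamma chain, the shared signalling subunit of the receptors for IL-2, IL-7 and IL-15. The zero holds for unique reads: its region overlaps another, all of its unique exon reads were junction reads, as in 35 compact genes in all, and the unique reads were 23.9% and 28.4% of its total exon reads in Prmt5 KO and 22.2% and 14.0% in Control. Among total reads, 372 and 63 lay in introns in Prmt5 KO and 21 and 26 in Control. These were 3.91% and 1.44% of its total gene reads in Prmt5 KO and 0.309% and 0.349% in Control. Both Prmt5 KO libraries were above both Control libraries, and the log2 difference of the intron to exon ratio of total reads was 2.89 ± 0.98 (edgeR adjusted p = 0.669 over all genes). Jak3, the kinase that binds this receptor chain, has 8928 intron bases and is not compact. Its intron share was 11.99% and 12.9% in Prmt5 KO and 2.21% and 1.91% in Control. The intron CPM of Jak3 overlapped between groups (7.88 and 5.29 in Prmt5 KO, 5.60 and 4.63 in Control). Its exon CPM was lower in Prmt5 KO (57.8 and 35.7, against 248.5 and 237.8 in Control).

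Intron reads can also be read as a level, scaled by the library size and TMM factors of the exon reads. This level was tested for 5850 genes, 162 of them compact. With edgeR, 0 genes (0%) were called higher in Prmt5 KO and 0 (0%) lower; DESeq2 called 33 higher over all genes and 0 compact. An unadjusted p under 0.05 was reached by 10 compact genes, all higher in Prmt5 KO (6.17%, beside 10.6% of all genes), and by 2 without Prmt5 KO 1 (1.11%, beside 7.78%). Scaling by the intron reads themselves took the median log2 difference of all genes down to 0.01, where it was 0.86 with exon scaling, and 8 of 158 compact genes were then under 0.05 (5.06%, beside 4.53% of all genes), 1 higher and 7 lower. Over all genes, the numbers higher and lower were not counted with that scaling. Whether the lean to lower levels is particular to compact genes was not tested.

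The exon-exon share, the percentage of unique exon reads that cross a junction, was summed over the compact genes in the same way. It was 48.6% and 53.7% in Prmt5 KO and 53.1% and 55.6% in Control, with Prmt5 KO 1 the lowest, Control 2 the highest and Prmt5 KO 2 above Control 1. The means were 51.1 ± 3.59% in Prmt5 KO and 54.3 ± 1.76% in Control (SD, n = 2 each). The difference of -3.21 percentage points was smaller in size than the SD within Prmt5 KO, and it was -0.671 points without Prmt5 KO 1. Medians over genes were 46.0% and 48.9% in Prmt5 KO and 51.1% and 48.7% in Control.

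The same edgeR design was used to test junction reads against the other exon reads in 8084 genes, 608 of them compact. At an adjusted p under 0.05, 0 genes (0%) were called higher in Prmt5 KO and 0 (0%) lower. An unadjusted p under 0.05 was reached by 30 compact genes (4.93%), 3 higher and 27 lower in Prmt5 KO, beside 259 of all genes (3.2%). Without Prmt5 KO 1 there were 19 (3.19%), 7 higher and 12 lower, beside 3.77% of all genes, so the lean to lower shares was smaller without that library. DESeq2 called 2 genes of all those tested, both lower in Prmt5 KO and both compact, Uba7 and Eif1. Without a test, 128 compact genes (20.2%) had a lower exon-exon share in both Prmt5 KO libraries than in either Control library, beside 17.7% of all expressed genes. In the other direction there were 51 (8.06%), beside 12.1%.

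Uba7 had junctions in 68.9% and 56.7% of its exon reads in Prmt5 KO and in 86.1% and 87.0% in Control. The Control libraries lay close together, and both Prmt5 KO libraries were well below them. The log2 difference of the ratio of junction to other exon reads was -1.84 ± 0.28 (edgeR adjusted p = 1), and DESeq2 gave an adjusted p of 0.00435, in a range of 0.00435 to 1 over the alternatives tried. In Uba7 the lower exon-exon share and the higher intron share thus stood in the same libraries, with 10 retained-intron transcripts annotated and 13 introns outside all exons; the printed intron is one of the first kind.

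Eif1 encodes a translation initiation factor that takes part in start codon choice. Its exon-exon share was 70.7% and 74.2% in Prmt5 KO and 83.0% and 85.4% in Control, without overlap, at a log2 difference of -1.02 ± 0.19 (edgeR adjusted p = 1; DESeq2 adjusted p = 0.0162). Its intron share was under 0.5% in every library (0.402% and 0.343% in Prmt5 KO, 0.304% and 0.203% in Control). Use1, a SNARE of transport between Golgi and endoplasmic reticulum, had an exon-exon share of 57.7% and 71.2% in Prmt5 KO and 83.6% and 85.2% in Control. Nudt8, a mitochondrial Nudix hydrolase, had 30.8% and 32.8% in Prmt5 KO and 63.4% and 64.7% in Control, and its intron reads numbered 15 and 6 in Prmt5 KO and 0 and 0 in Control. In both the Control libraries lay close together and above the Prmt5 KO libraries.

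Rbmxl1, a retrocopy-derived gene related to the hnRNP G gene Rbmx, had few junction reads in any library (2.07% and 3.15% in Prmt5 KO, 5.08% and 5.32% in Control). Its intron reads numbered 162 and 30 in Prmt5 KO and 6 and 0 in Control. Eef1b2, an elongation factor subunit whose introns hold a small nucleolar RNA, had exon-exon shares of 49.3% and 49.3% in Prmt5 KO and 58.9% and 61.4% in Control. Armcx2 had 7.51% and 2.33% in Prmt5 KO and 15.2% and 19.8% in Control. For Rpl15, a protein of the large ribosomal subunit, the unique reads gave 27.5% and 26.0% in Prmt5 KO and 42.4% and 43.5% in Control, but the log2 difference of -1.04 turned to 0.22 with total reads, so its direction depends on how reads with several alignments are treated. Of the 8 genes with a lower exon-exon share, Uba7, Nudt8, Rpl15 and Eef1b2 lie in regions that overlap another. The adjusted p of Use1, Nudt8, Rbmxl1, Eef1b2, Armcx2 and Rpl15 was 1.

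In the other direction, the exon-exon share of Pgam2, a phosphoglycerate mutase of muscle, was 46.4% and 45.7% in Prmt5 KO and 16.7% and 35% in Control. Rnasek had 54.7% and 47.2% in Prmt5 KO and 32.4% and 0% in Control, and the ATP synthase subunit gene Atp5e 94.5% and 94.6% in Prmt5 KO and 93.7% and 91.2% in Control. Emc6, Gm4149, Zcchc12, AI467606 and 1810043H04Rik completed the 8, each with an adjusted p of 1. The groups did not overlap in these genes, though Emc6 had 28 junction reads in Prmt5 KO and 7 in Control, and Rnasek 58 and 11. The log2 difference of Rnasek was 2.19 with unique reads and 0.21 with total reads, and 8.24 and 1.15 without Control 1 and Control 2.

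**Figure D4:**
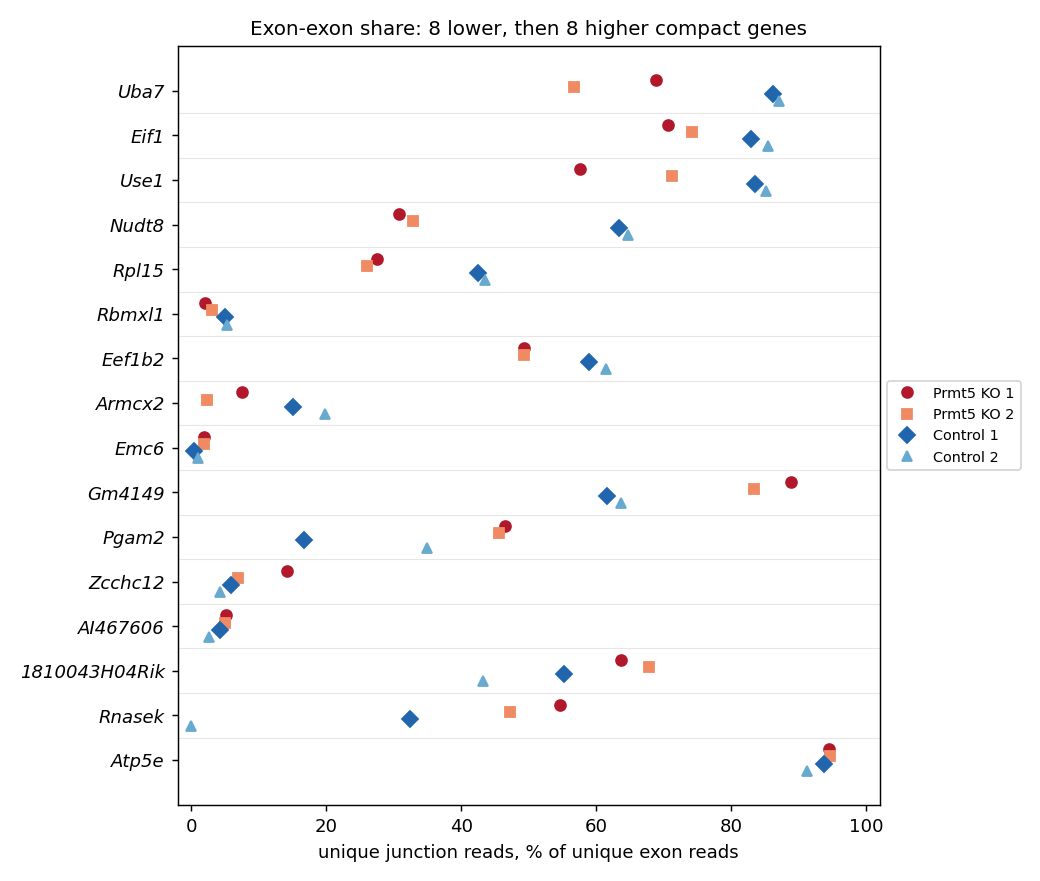
Exon-exon share (percent of unique exon reads that cross a junction) of the 8 compact genes with the smallest p and a lower share in Prmt5 KO, from Uba7 down to Armcx2, and of the 8 with a higher share, from Emc6 down to Atp5e. Each point is 1 library; Nudt8 shows 30.8% and 32.8% in Prmt5 KO and 63.4% and 64.7% in Control.

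By function, 150 of the 633 compact genes fell into at least 1 of 18 lists made by gene symbol. The lists can share genes, as the proteasome list and the class I and peptide processing list share Psmb8. None of their members passed the intron share or exon-exon share threshold with edgeR. The 44 cytosolic ribosomal protein genes were the largest list. Their pooled intron share was 0.931% and 0.258% in Prmt5 KO and 0.252% and 0.245% in Control, and 11 of the 44 were above both Control libraries in both Prmt5 KO libraries, with 0 below, beside 36.5% and 2.03% of all genes. Many have processed copies elsewhere in the genome, so unique reads sample them unevenly. Rpl36 had 4.09% and 1.12% in Prmt5 KO and 1.65% and 2.60% in Control. Prmt5 KO 1 was highest and the groups overlapped.

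The 15 oxidative phosphorylation genes stood at 2.66% and 0.509% in Prmt5 KO and 0.673% and 0.695% in Control, and the 18 mitochondrial ribosomal protein genes at 2.61% and 0.976% in Prmt5 KO and 0.972% and 0.894% in Control. In each list 4 genes were higher in both Prmt5 KO libraries and 0 lower, again beside 36.5% and 2.03% of all genes. Uqcrq, a subunit of respiratory complex III, had 7.86% and 1.13% in Prmt5 KO and 0.488% and 0.652% in Control, and its complex III partner Uqcr10 had 3.44% and 1.51% in Prmt5 KO and 2.12% and 2.84% in Control. The groups were apart for Uqcrq and overlapped for Uqcr10. The mitochondrial ribosomal gene Mrps16 had 8.11% and 5.16% in Prmt5 KO and 3.94% and 3.01% in Control.

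Lists nearest to the splicing machinery held few compact genes. Lsm10 and Lsm2, of the Sm and LSm family, had 13 and 2 intron reads together in Prmt5 KO and 1 and 0 in Control. Their pooled shares were 1.42% and 0.377% in Prmt5 KO and 0.174% and 0% in Control. The 7 genes of the SR and hnRNP list had 1.11% and 0.578% in Prmt5 KO and 0.301% and 0.858% in Control, with overlap. Srsf1, a splicing activator, had 2.34% and 0.956% in Prmt5 KO and 0.884% and 0.600% in Control, without overlap, and Srsf5 0.630% and 0.971% in Prmt5 KO and 0.237% and 1.74% in Control. Of the 4 RNA polymerase subunit genes, Polr1c had 6.12% and 4.92% in Prmt5 KO and 0% and 3.65% in Control. The 5 translation factor genes stood at 1.01% and 0.265% in Prmt5 KO and 0.362% and 0.279% in Control.

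Among immune genes, Hcst encodes DAP10, the signalling adaptor of NKG2D. Its intron share was 31.4% and 25% in Prmt5 KO and 13.5% and 6.25% in Control, without overlap (log2 difference 1.94 ± 1.24, edgeR adjusted p = 0.748). Here the intron CPM overlapped (12.2 and 7.28 in Prmt5 KO, 22.0 and 9.78 in Control) while exon CPM was lower in Prmt5 KO (26.6 and 21.8, against 141 and 147 in Control). H2-K1, a classical class I molecule, was similar in its exon reads, at 314 and 307 CPM in Prmt5 KO and 1375 and 1130 in Control, with intron shares of 5.42% and 0.854% in Prmt5 KO and 0.436% and 0.250% in Control. Its intron to exon ratio had a log2 difference of 2.81 ± 1.24 (edgeR adjusted p = 0.717). For its intron level the log2 difference was 1.10 ± 1.02 (edgeR adjusted p = 0.730). In bulk samples fewer cells of a type and less RNA per cell cannot be told apart. Cd7 had no unique intron read in any library, but its region overlaps another and all of its unique exon reads were junction reads, so the zero covers unique reads alone.

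The interferon-stimulated list, 5 genes, had pooled shares of 1.56% and 1.14% in Prmt5 KO and 0.336% and 0.352% in Control. Of the 5 genes, 2 were higher in both Prmt5 KO libraries and 0 lower, beside 36.5% and 2.03% of all genes. Irf2bp2, in the list by its symbol, is not known as such a gene. Irf9, the DNA-binding subunit of the factor that type I interferon activates, had 2.46% and 3.70% in Prmt5 KO and 0.132% and 2.87% in Control, while Irf7 had 1.99% and 0% in Prmt5 KO and 0.344% and 0% in Control. The 9 immediate-early genes stood at 2.89% and 2.58% in Prmt5 KO and 0.866% and 2.33% in Control. Btg2 had 5.38% and 8.18% in Prmt5 KO and 2.99% and 3.49% in Control, without overlap, and Dusp2, a phosphatase of MAP kinases, 4.59% and 1.52% in Prmt5 KO and 1.71% and 3.40% in Control, with overlap. Egr1 had none.

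The 9 genes of the chemokine, cytokine and TNF list had 4.32% and 2.37% in Prmt5 KO and 1.74% and 2.72% in Control. Lta, which encodes lymphotoxin alpha, had 46 and 15 intron reads in Prmt5 KO and 1 and 1 in Control, for shares of 17.3% and 15.2% in Prmt5 KO and 1.52% and 2.94% in Control (edgeR adjusted p = 0.734), and its region overlaps another. Ltb, which encodes its partner lymphotoxin beta, had 4.30% and 0.852% in Prmt5 KO and 2.77% and 2.23% in Control, and the chemokine receptor gene Ccr8 4.51% and 7.86% in Prmt5 KO and 1.30% and 7.90% in Control. The groups were apart in Lta and overlapped in Ltb and Ccr8. The gene of the STAT inhibitor SOCS1 had 1.81% and 2.47% in Prmt5 KO and 3.51% and 2.13% in Control, and Pim3 1.01% and 2.78% in Prmt5 KO and 0.980% and 0% in Control.

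The 7 actin and tubulin genes, counted with profilin, stood at 0.862% and 0.176% in Prmt5 KO and 0.146% and 0.0721% in Control, and 4 of them were higher in both Prmt5 KO libraries (36.5% of all genes were). The 7 proteasome genes had 0.668% and 0.308% in Prmt5 KO and 0.0734% and 0.350% in Control, the 5 class I and peptide processing genes 1.77% and 0.247% in Prmt5 KO and 0.237% and 0.124% in Control, and the 5 chaperone genes 0.642% and 0.381% in Prmt5 KO and 0.144% and 0.328% in Control. The 3 small nucleolar RNA host genes held 26 and 1 intron reads in Prmt5 KO and 6 and 7 in Control. Their pooled shares were 1.04% and 0.0961% in Prmt5 KO and 0.616% and 0.829% in Control, with overlap. The 2 targets of p53 held 11 and 0 intron reads in Prmt5 KO and 4 and 1 in Control. As pooled shares these were 0.770% and 0% in Prmt5 KO and 3.64% and 0.943% in Control, so lower in Prmt5 KO, from few reads. Prmt5 KO 1 was the highest library in the actin, proteasome, class I and chaperone lists. The 18 genes with a small nucleolar RNA in an intron had 0.868% and 0.212% in Prmt5 KO and 0.181% and 0.266% in Control.

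**Figure D5:**
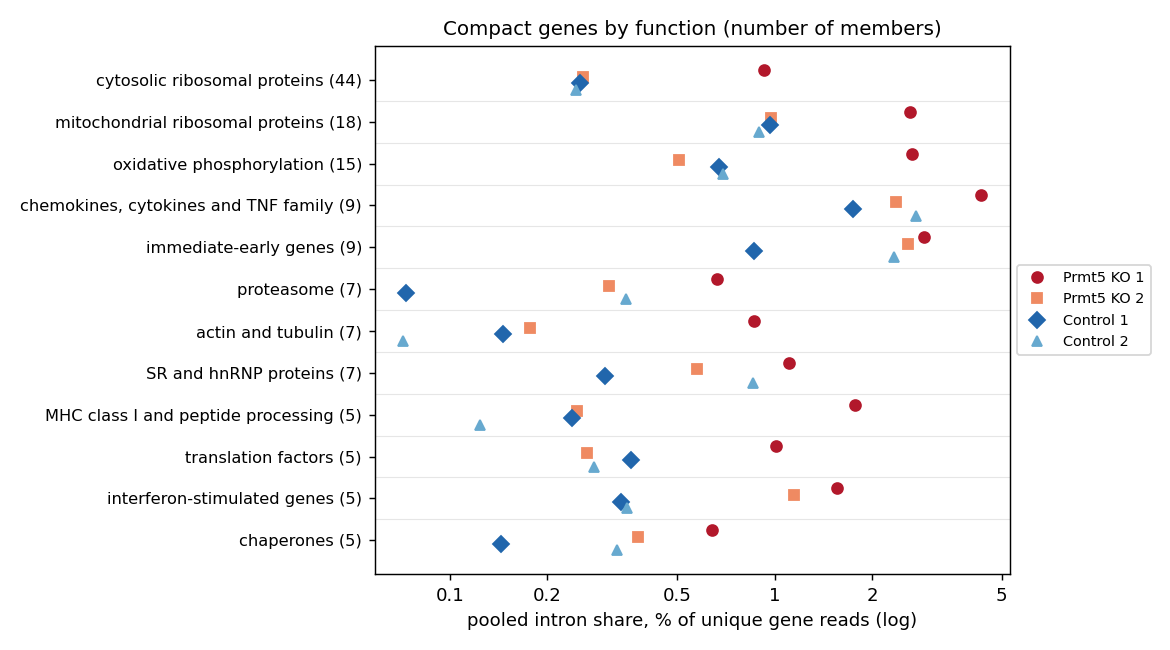
Pooled intron share (percent of unique gene reads, log axis) of the functional lists with at least 5 compact genes, 1 point per library, with the number of genes in brackets. Cytosolic ribosomal protein genes show 0.931% in Prmt5 KO 1 and 0.245% to 0.258% in the other 3 libraries. The interferon-stimulated list shows 1.56% and 1.14% in Prmt5 KO and 0.336% and 0.352% in Control. In that list 2 of 5 genes were higher in both Prmt5 KO libraries, beside 36.5% of all genes.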

How the data were processed

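RNA-seq reads of 4 libraries (2 Prmt5 KO, 2 Control) were analysed from 1 table. The libraries were made with a SMART-seq v4 kit from amplified cDNA, per the labels' protocols; the submitters' processing notes name the mm10 build and edgeR, without roles. The authors deposited raw counts, not normalized, of the unique and the total reads in genes, exons, introns and exon-exon junctions; the aligner and the use of strand were not given in the sources used here. Reads carry no molecular identifiers, so intervals and the floor of 3 counts cover counting error only.

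Shares were computed per gene and library. Tests were fitted over all genes with edgeR 4.0.16 in R 4.3.3: the share tests compared 2 kinds of read within each library, with the library as a block and the interaction with Prmt5 KO tested, and the level test used TMM factors from exon reads with filterByExpr. P-values were Benjamini-Hochberg adjusted, with a threshold of 0.05. DESeq2 1.42.0, total reads, a replicate block, other scalings, no minimum and leaving out each library were alternatives. The tests were also run on simulated counts that held no library-wide shift of intron reads. Those runs do not show how the tests behave with a library such as Prmt5 KO 1.

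The compact genes, the lists and the tests were chosen with earlier results of these data known. As fewer than 5 compact genes passed, those named are the 8 per direction with the smallest p and no overlap between groups in each share test, the 10 with the most intron reads, the 5 highest and 5 lowest mean shares, up to 4 per list, and Il2rg, Jak3 and Prmt5. Introns were read from GENCODE M21. Values of some genes are not reported here.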

Additional observations from a re-analysis of the deposited data

How the results depend on the processing

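The pooled differences kept their sign under each alternative tried: 0.0527 to 1.22 percentage points for the intron share and -5.74 to -0.671 for the exon-exon share when 1 library was left out, the smallest without Prmt5 KO 1. Leaving out 1 library gave 0 to 1 genes with a higher intron share, over all and over compact genes (Pfn1, without Prmt5 KO 2). For the exon-exon share it gave 0 to 34 higher and 0 to 38 lower over all genes and 0 to 5 higher and 0 to 7 lower compact genes, all without Control 1, where Uba7 and Eif1 had adjusted p-values of 0.0488 and 0.0340; DESeq2 called 2 lower. For the intron level it gave 1 to 75 higher and 0 to 3 lower over all genes and 0 to 1 higher compact genes (Rbmxl1, without Control 1). Over all genes DESeq2 called 33 higher intron levels and no minimum on counts 12. Rpl15 reversed to 0.22 with total reads. Compact genes without overlap numbered 182 to 427 higher and 25 to 118 lower for the intron share when 1 library was left out (all genes: 44.1 to 66.6% and 3.69 to 18.7%), and 107 to 190 higher and 205 to 258 lower for the exon-exon share (all genes: 23 to 36.6% and 31.9 to 38.1%), a check chosen after seeing the data. The causes of these shifts were not tested. The labels give both groups replicates 1 and 2 without saying that a number pairs libraries; the correlation of same-numbered deviations was 0.28 for exon levels and 0.11 for intron to exon ratios. With the replicate block, 5 genes were called higher in intron level, 0 of them compact, and 0 in either share test.

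With 2 libraries a group, and unique exon reads from 3886087 to 11674023 a library, intron reads of some compact genes were few: 72 of 633 had none and 133 had 1 to 9 over all libraries.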
